A study of Mus musculus with 82 samples.

Results

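The members described here were 1280 of the 1416 snoRNA genes of the GRCm38 RefSeq annotation of the mouse. They were all annotated snoRNAs on assembled chromosomes apart from 50 that lie in Gas5, Snhg1, Snhg3, Snhg5, Snhg6, Snhg8, Snhg12, Rabggtb, Eif4a2, Rpl13a and the nucleolar genes Ncl, Npm1, Nop56, Nop58, Fbl, Dkc1 and Nolc1. By symbol or product, 367 were box C/D, 889 were box H/ACA and 24 could be put in neither family. Only 77 carried a Snord and 31 a Snora symbol, and 1178 were gene models predicted from sequence. No gene on the same strand held 713 of them, 543 lay in an intron, 20 in an exon of some transcripts of the host and 4 in an exon of every transcript. The hosts were protein coding for 284 and long noncoding for 279.

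All libraries came from V6.5 mouse embryonic stem cells, an established line grown in serum with leukaemia inhibitory factor and without any added treatment. Nascent RNA was labelled by a nuclear run-on with 3′-propargyl nucleotides, which carry an alkyne, and a barcoded azide DNA was then clicked onto the labelled 3′ end. AGTuC is the population version, run on a large pool of nuclei with a high concentration of the detergent sarkosyl, and gave 2 libraries of 1 experiment (Exp125c). inAGTuC is run on intact nuclei with less sarkosyl, with many nuclei in each well of a plate, and gave 4 libraries (Exp208_c12, Exp208_c14, Exp234_c11 and Exp261_c16), whose labels do not give the number per well. scGRO-seq is the same intact-nuclei chemistry with 1 cell in each well, and was summed into 10 batches (Exp156, Exp160, Exp208, Exp211, Exp236, Exp246, Exp260, Exp260b, Exp263 and Exp264a). They hold 53 of the 76 libraries labelled scGRO-seq. The other libraries enter below only where this is said, so scGRO-seq ranges are those of the 10 batches and not of the whole assay. The labels do not say which batches came from separate cultures, so p-values measure the spread between these batches and libraries. Each deposited read is 1 molecule, and the 3′-most aligned base of a molecule on the RNA strand was taken as its RNA 3′ end, the base that received the DNA if no adaptor base was aligned with it.

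SnoRNAs are short noncoding RNAs that work as guides in the nucleolus. Box C/D snoRNAs guide 2′-O-methylation and end shortly after a D box, while H/ACA snoRNAs guide pseudouridylation and end a few bases after an ACA box. Most mammalian snoRNAs are cut out of spliced introns and trimmed to these ends by exonucleases, whereas a few, such as U3, U8 and U13, are made from their own promoters and act in cleavage or folding of ribosomal RNA precursors. A run-on 3′ end inside a snoRNA may therefore come from a polymerase within the gene or from the end of a finished RNA, and the position of the 3′ end is the measure followed below.

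The sequences of 8 members carry the positions used below and are taken from the RefSeq GRCm38 genome and shown 5′ to 3′ with 10 bases past the annotated end, which the coordinates include. Capitals mark the last D box (CTGA) of a C/D member or the last ACA box of an H/ACA member. Snord49b (chr11:62603086-62603158, plus strand), Snord49a (chr11:62603460-62603531, plus strand) and Snord65 (chr11:62604530-62604596, plus strand) lie in introns of the noncoding gene 2410006H16Rik. U8, Snord118 (chr11:69073426-69073572, plus strand), and the H/ACA member Gm22711, named SNORA76 (chr11:106501245-106501387, plus strand), have no host. Snora57 (chr19:8888526-8888685, minus strand) lies in an exon of 5730408K05Rik. Snord64 (chr7:59978801-59978856, minus strand) lies in an intron of Snhg14 and DQ267100 (chr12:109649617-109649697, plus strand) in an intron of Rian, both of them in imprinted loci. RefSeq gives DQ267100 no family, so no box was marked in it.
Snord49b: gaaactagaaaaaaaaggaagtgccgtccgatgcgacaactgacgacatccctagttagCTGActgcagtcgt
Snord49a: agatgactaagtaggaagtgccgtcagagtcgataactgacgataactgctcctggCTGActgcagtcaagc
Snord65: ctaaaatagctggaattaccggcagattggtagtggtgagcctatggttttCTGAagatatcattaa
Snord118: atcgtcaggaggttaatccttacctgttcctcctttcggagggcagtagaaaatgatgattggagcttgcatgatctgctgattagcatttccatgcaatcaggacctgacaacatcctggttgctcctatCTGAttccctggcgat
Gm22711: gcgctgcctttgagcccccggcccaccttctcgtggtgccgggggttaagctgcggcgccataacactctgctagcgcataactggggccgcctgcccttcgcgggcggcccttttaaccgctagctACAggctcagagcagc
Snora57: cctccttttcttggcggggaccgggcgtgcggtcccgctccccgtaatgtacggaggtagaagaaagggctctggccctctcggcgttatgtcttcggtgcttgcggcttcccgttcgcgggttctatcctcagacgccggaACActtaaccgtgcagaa
Snord64: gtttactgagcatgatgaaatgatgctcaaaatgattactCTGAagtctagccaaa
DQ267100: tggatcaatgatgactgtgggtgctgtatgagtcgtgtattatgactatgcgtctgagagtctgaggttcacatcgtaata
The annotated end stops at the last base of the D box in Snord49b and 2 bases past it in Snord49a, Snord65, Snord118 and Snord64. Across the members, 345 C/D genes had a D box near the annotated end, most often 5 bases before it (228 genes), and 569 H/ACA genes had an ACA, most often 2 bases before it (272 genes). Distances from the annotated end and from the box were therefore both measured.

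The units held 228750 to 4928852 reads after molecules found in linked libraries were left out. That step removed 1.13 to 43.6% of the reads in snoRNA windows, against 0.245 to 41.6% of all reads. The library Exp261_c16 is listed under both inAGTuC and scGRO-seq, and 99.92% of the molecules in the list labelled scGRO-seq recur in the list labelled inAGTuC, so the comparisons of inAGTuC with scGRO-seq are given with and without it. The read names hold 3 sets of 96 cell barcodes, one set of 12 nt and a pair of 10 nt. Exp156 and Exp160 used the 12-nt set, Exp208 and Exp211 the 12-nt set and the first 10-nt set, and the other 6 scGRO-seq batches and all 4 inAGTuC libraries the second 10-nt set. Of 8 embryonic stem cell markers, 6 to 8 were detected in each unit. They summed to 215 to 1175 RPM (the usual RPM scaling, by all reads of the unit). Of 9 markers of other cell types, 4 to 9 were detected in each unit, at a summed 16.4 to 67.1 RPM. Only T of these had 0 reads in AGTuC. Esrrb had the highest median in every assay (176 RPM in scGRO-seq), and single markers overlapped. In inAGTuC the Gata4 median of 25.9 RPM lay above that of every stem cell marker but Esrrb, Zfp42 and Tdgf1. In scGRO-seq Gata4 at 7.83 lay above Klf4 at 6.74 and Dppa5a at 4.37 only. In AGTuC every stem cell marker lay above Gata4 at 13.4, the highest of the second list.

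Of the 1280 annotated members, 592 had no read in any assay, and in scGRO-seq 25 held about as many reads as all the others together. A read was assigned to a member when its RNA 3′ end lay, on the sense strand, in the snoRNA or within 20 bp of it. The 10 scGRO-seq batches held 377315 such reads in 610 members, the inAGTuC libraries 111319 in 456 and the AGTuC libraries 5949 in 253. A total of 231 members had reads in all 3 assays. Of the 592 with none, 131 share their last 40 nt with another snoRNA gene, which limits where reads can be placed. The 25 most-read members held 50.8% of the reads in scGRO-seq, 45.4% in inAGTuC and 47.3% in AGTuC. The 108 members with a Snord or Snora symbol held 53.7% of the scGRO-seq reads. Among the 2526 scGRO-seq cells, all had member reads, with batch medians of 40 to 182 reads and 27 to 80 members per cell.

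SnoRNAs took up a few percent of the reads in single cells and far less in AGTuC. The share of all reads in member windows was lowest at 1.17% in Exp160, had a median of 2.46% and was highest at 6.24% in Exp156, with a mean of 2.88% ± 1.72 (SD, n = 10). Libraries outside the 10 batches varied widely. Over all barcodes, Exp168_c13 had 11156 reads at H/ACA members with an ACA box, of 156403 deposited reads. Exp93b_c04 had 49 such reads, of 179065 deposited. In inAGTuC the shares were 2.34% in Exp208_c12, 0.736% in Exp208_c14, 0.201% in Exp234_c11 and 6.02% in Exp261_c16. In AGTuC they were 0.0815% and 0.0868%. Both AGTuC libraries lay below every scGRO-seq batch and every inAGTuC library, while inAGTuC spanned a wider range than the 10 batches. AGTuC minus scGRO-seq was -2.80 percentage points (adjusted p = 0.121, two-sided exact permutation test, Benjamini-Hochberg over 6 tests) and inAGTuC minus scGRO-seq was -0.55 (adjusted p = 0.643, exact permutation test), or -1.79 without Exp261_c16 (adjusted p = 0.184, exact permutation test). Neither difference passed the threshold of 0.05. In libraries made from many cells, fewer cells that express a snoRNA and less RNA per cell cannot be told apart. With 2 libraries against 4, AGTuC against inAGTuC cannot reach a p below 0.0667.

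**Figure D1:**
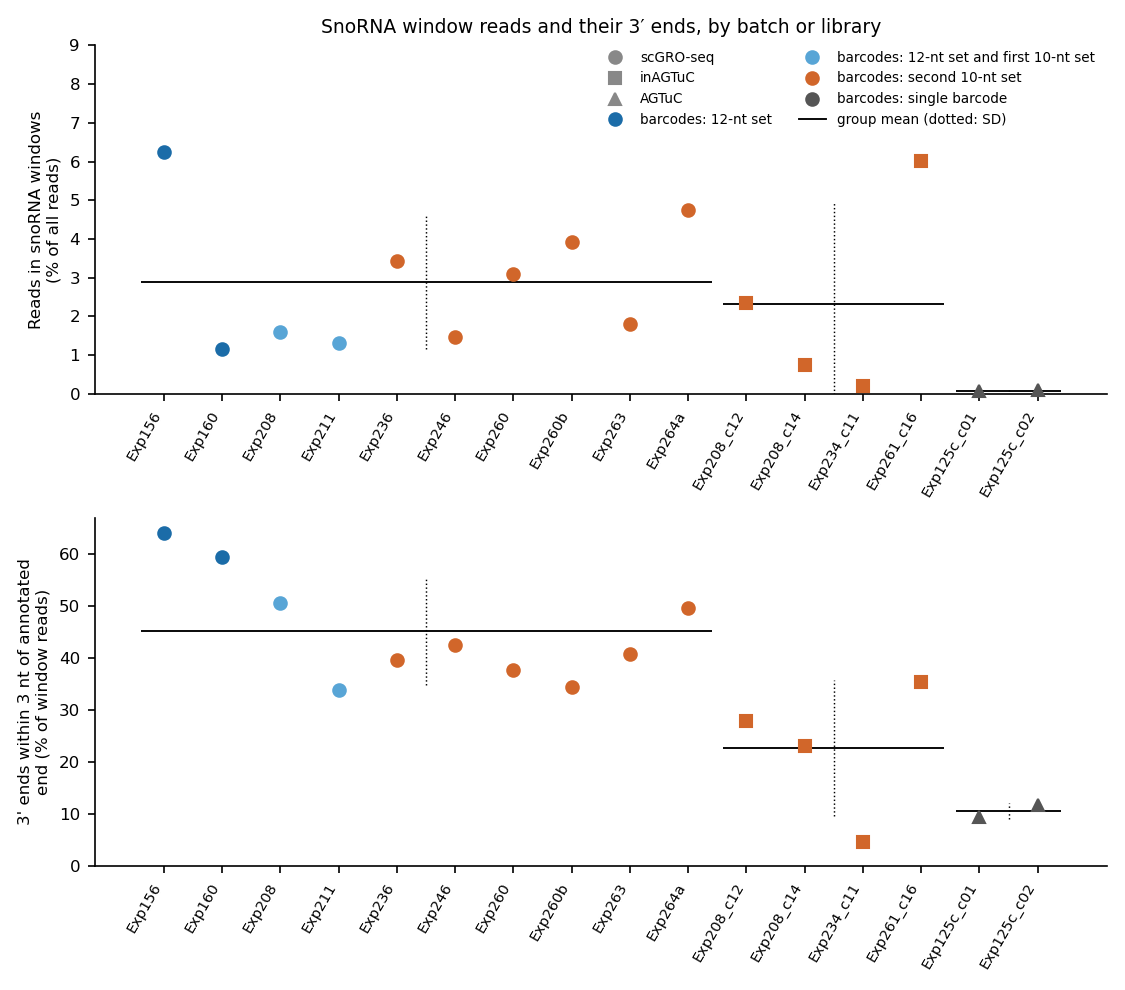
Upper plot, percent of all reads whose RNA 3′ end lies in a snoRNA window; lower plot, percent of those reads within 3 nt of the annotated end; each symbol is 1 scGRO-seq batch or 1 library, lines are group means and dotted lines the SD. AGTuC lies at 0.0815 and 0.0868% in the upper plot and at 9.51 and 11.7% in the lower plot, below all 10 scGRO-seq batches in both.

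In scGRO-seq the reads lay far more densely on the snoRNAs than on the sequence around them. Sense reads per kb in the windows were 37.4 to 79.0 times those in the sense flanks from 21 to 300 bp outside any annotated small RNA, a log2 ratio of 5.63 ± 0.38 (SD, n = 10) that was above 0 in 10 of 10 batches (p = 0.00195, exact sign-flip permutation test, the smallest it can give). The 4 inAGTuC libraries had ratios of 46.7, 22.1, 15.9 and 59.1 in the order given above. The ratios in AGTuC were 1.39 and 1.49, so that windows and flanks were nearly alike there and far apart in every scGRO-seq batch and inAGTuC library.

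The reads were also stranded. Sense exceeded antisense reads in the windows by a log2 of 4.03 ± 1.44 (SD, n = 10) in scGRO-seq, in 10 of 10 batches (p = 0.00195, exact sign-flip permutation test). In inAGTuC the sense reads were 3.23, 2.87, 1.91 and 28.5 times the antisense reads, and in AGTuC 25.99 and 21.97 times. The antisense reads had a place of their own. In scGRO-seq, 18.6 to 42.4% of them per batch ended within 3 nt of the position opposite the first base of the snoRNA, and at most 0.462% within 3 nt of the position opposite its last base. What made these antisense ends was not tested.

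The RNA 3′ ends collected at the snoRNA ends, and more so in scGRO-seq than in inAGTuC or AGTuC. Within 3 nt of the annotated last base lay a share of window reads that was lowest at 33.8% in Exp211, had a median of 41.6% and was highest at 63.97% in Exp156, with a mean of 45.2% ± 10.4 (SD, n = 10). The inAGTuC shares were 27.8, 23.1, 4.69 and 35.4% (22.8% ± 13.1, SD, n = 4), and those of AGTuC 9.51 and 11.7%. Exp261_c16 alone among the inAGTuC libraries reached the range of the batches. inAGTuC was 22.4 percentage points below scGRO-seq (-22.4, adjusted p = 0.024, exact permutation test over 10 and 4 units, which counts Exp208_c12 and Exp208_c14 separately although both share their experiment with a scGRO-seq batch), and -26.7 without Exp261_c16 (adjusted p = 0.021, exact permutation test). With Exp208_c12 and Exp208_c14 averaged to 1 unit, inAGTuC minus scGRO-seq was -23.4 (adjusted p = 0.0455, exact permutation test). AGTuC minus scGRO-seq was -34.6 (adjusted p = 0.0455, exact permutation test, with 0.0152 the smallest unadjusted p that 2 against 10 units allow). AGTuC minus inAGTuC was -12.1 (adjusted p = 0.40, exact permutation test), and -7.92 without Exp261_c16 (adjusted p = 0.40, exact permutation test). Both calls were lost with named Snord and Snora members only (-20.4 and -32.7, adjusted p = 0.0599 for both, exact permutation tests) and within 1 nt of the end (-12.9 and -18.9, adjusted p = 0.0909 for both, exact permutation tests). They also rest on few units: leaving out any 1 scGRO-seq batch or 1 AGTuC library put AGTuC at an adjusted p of 0.0545 or more (exact permutation test), and that of inAGTuC exceeded 0.05 without Exp234_c11, where the difference was -16.4 (adjusted p = 0.0944, exact permutation test), without Exp208_c14 (-22.6, adjusted p = 0.0524, exact permutation test) and without the scGRO-seq batches Exp208 (-21.9) or Exp264a (-22.0), each at 0.0503 (exact permutation test).

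The exact position of these ends differed between batches and moved with the barcode set. In the 4 batches of the 12-nt and first 10-nt sets, the most common 3′ end lay 1 nt after the D box and 2 nt after the ACA box, in each of the 4. Over these batches, 33.2% of C/D reads lay 0 to 2 nt after the D box and 1.09% lay 6 to 8 nt after it. In the 6 batches of the second 10-nt set, the most common 3′ end of C/D members lay 7 nt after the D box in each, with 8.80% of reads at 0 to 2 nt and 41.7% at 6 to 8 nt. For H/ACA members it lay 8 nt after the ACA in 5 of these batches and 2 nt after it in Exp264a. Their H/ACA reads lay to 15.2% at 1 to 3 nt and to 42.1% at 7 to 9 nt, against 48.6% and 0.20% in the other sets.

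Single snoRNAs shifted the same way, by varying distances. In Snord49b, Snord49a and Snord65, the most common 3′ end lay 1 nt after the capitals printed above in the first group of batches and 7 nt after them in the second. In Snora57 it lay at 2 nt in the first and 8 nt in the second group, and in Snord118 at 1 and 8 nt. For Gm22711 the positions were 3 and 8 nt. Of 99 members with at least 100 reads in both groups, the shift had a median of 5 nt in 53 C/D members and 6 nt in 46 H/ACA members, of which 14 and 15 moved by exactly 6 nt and 23 and 33 by 5 to 7 nt. The others ranged from 2 to 48 nt in C/D members and from 0 to 67 nt in H/ACA members, where Gm23639, Snora68 and LOC115487273 kept their position. Library by library the shift was counted for H/ACA reads only, 1 to 3 nt (near) against 7 to 9 nt (far) after the ACA, in every scGRO-seq library with at least 20 such reads, those outside the 10 batches included. All 26 libraries of the 12-nt set and all 5 of the first 10-nt set had more reads at the near position, and 33 of the second 10-nt set had more at the far one, with 5 of that set the other way. The inAGTuC libraries used the second 10-nt set too, yet Exp208_c12 and Exp208_c14 had their D box peak at 2 nt, and Exp261_c16 at 7 nt. Exp234_c11 had no peak at the D box, with 0.712% of C/D reads at the near position and 1.48% at the far one.

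Reads at the far position aligned less well. In the second 10-nt set, a mapping quality of 24 or less was given to 76.8% of the far C/D reads and 92.2% of the far H/ACA reads, against 38.6 and 32.1% of the near ones, and to 12.2 and 11.4% of near reads in the other sets. Per the study's methods, one of the azide DNA designs carries 5 extra fixed bases next to the azide base. The study's own list of adaptor sequences was not used here, so that design was not tied to a barcode set. The deposited rows hold no read sequence, and whether adaptor bases lie within the aligned stretch of far reads was not tested. Taking the end zone as 0 to 9 nt after the box holds both positions. On that measure, chosen after the positions were seen, scGRO-seq had 67.1% ± 12.8 (SD, n = 10) of reads at the end, inAGTuC 32.4% ± 25.1 (SD, n = 4) and AGTuC 13.6% ± 1.67 (SD, n = 2). inAGTuC minus scGRO-seq was then -34.7 (adjusted p = 0.036, exact permutation test), or -45.9 without Exp261_c16 (adjusted p = 0.021, exact permutation test), and AGTuC minus scGRO-seq -53.5 (adjusted p = 0.0455, exact permutation test). Against the batches of the second 10-nt set alone, inAGTuC stood at -18.0 and AGTuC at -30.1 on the annotated end (adjusted p = 0.0571 and 0.0714, exact permutation tests over 6 batches), and inAGTuC at -22.2 without Exp261_c16 (adjusted p = 0.0714, exact permutation test).

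**Figure D2:**
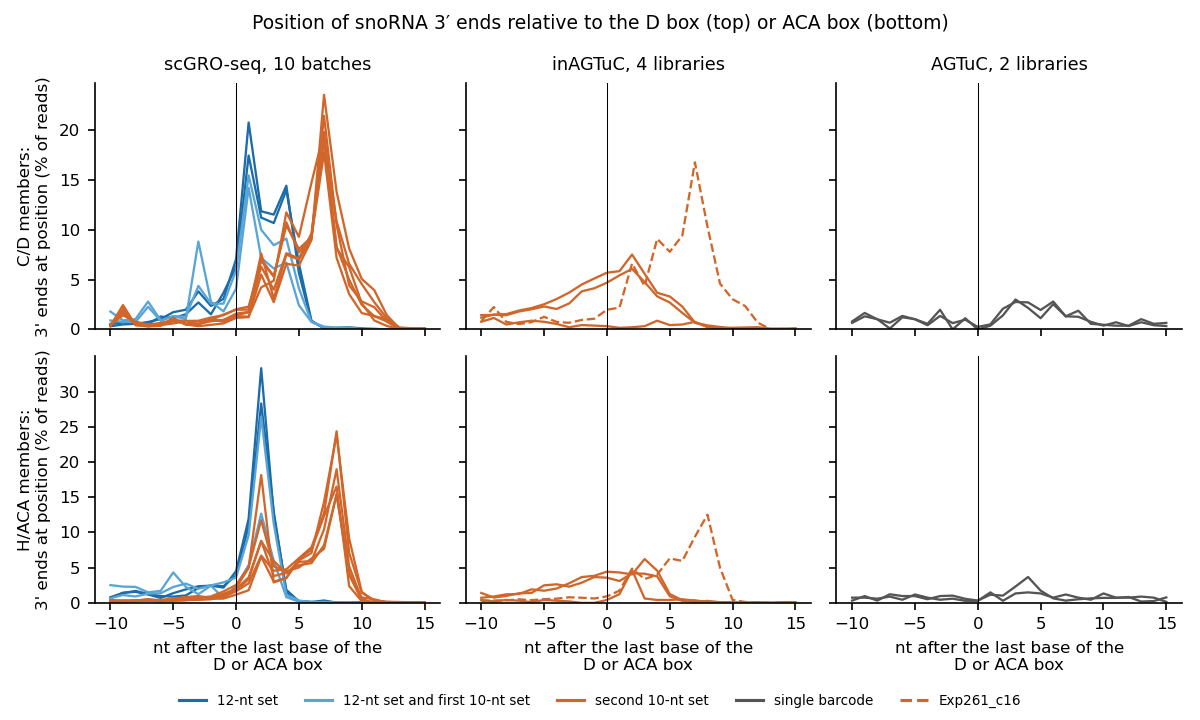
Percent of reads whose 3′ end lies at each nt after the last base of the D box (C/D members, upper row) or the ACA box (H/ACA members, lower row); each line is 1 scGRO-seq batch or 1 library, coloured by barcode set, with Exp261_c16 dashed. Batches of the second 10-nt set peak 7 nt after the D box, those of the other sets at 1 nt, and AGTuC has no comparable peak.

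Members differed in how strictly their reads kept to the end. Of 166 members with at least 200 scGRO-seq reads, 139 had over 50% of them from 3 nt before to 12 nt past the annotated end, with a median of 74.1%. Snord49b had 95.9% there, Snord64 97.8%, Snora57 88.5% and Snord118 87.6%. In 26 members over 50% of the reads ended upstream. Gm23787, a SNORD113/SNORD114 copy, had 92.2% upstream, and Snord13 had 48.9%. For Gm23787 the last CTGA found lies 15 bases before the annotated end.

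C/D genes held more reads than H/ACA genes, but not among the named ones. Per annotated gene, C/D members had 1.90 to 6.204 times the reads of H/ACA members, a log2 ratio of 2.07 ± 0.51 (SD, n = 10), higher in 10 of 10 batches (p = 0.00195, exact sign-flip permutation test). Among members with a Snord or Snora symbol the ratio was -0.10 ± 0.42 (SD, n = 10; p = 0.479, exact sign-flip permutation test), with batches from -0.93 to 0.37. Per kb of annotated length the log2 ratio over all members was 2.54 ± 0.51 (SD, n = 10). The call therefore rests on the members without a Snord or Snora symbol, most of them H/ACA gene models.

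Within 3 nt of the annotated end, the difference between the families did not pass the test. The share was 46.03% ± 9.61 in C/D and 43.3% ± 12.9 in H/ACA members (SD, n = 10), and the difference of 2.70 ± 5.79 percentage points was above 0 in 6 of 10 batches (p = 0.174, exact sign-flip permutation test). In the zone of 0 to 9 nt after the box C/D members were ahead by 5.78 (69.3 against 63.5%), in 9 of 10 batches (p = 0.0137, exact sign-flip permutation test), and with reads of mapping quality 30 or more the difference on the annotated end was -0.78 (p = 0.672, exact sign-flip permutation test). It passed within 5 nt of the annotated end (5.02, p = 0.0234, exact sign-flip permutation test) and over all batches labelled scGRO-seq (5.30, p = 0.024, permutation test), and was -1.12 within 1 nt and -0.39 in the 4 batches of the 12-nt and first 10-nt sets. Which family was ahead thus depended on the zone, the mapping quality and the batches.

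The snoRNAs most like the members are the 50 in the host and nucleolar genes named above. Their end share was 49.2% ± 9.73 (SD, n = 10), and the members were below it in 10 of 10 batches, with a difference of -3.97 ± 2.40 percentage points (SD, n = 10; p = 0.00195, exact sign-flip permutation test). Measured from the box the difference was -2.16 (p = 0.471, exact sign-flip permutation test), and within 1 nt of the annotated end it turned to 1.36 (p = 0.432, exact sign-flip permutation test).

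Feature by feature, 230 of the 236 snoRNAs that reached the read minimum were lower in AGTuC than in scGRO-seq, while 88 of 136 host genes were higher. A limma voom fit covered 16282 windows and gene spans with at least 50 reads, 236 of them members. At an adjusted p below 0.05, 64.7% of all features were called. Of all features, 17.3% were lower and 47.3% were higher in AGTuC (2824 and 7707), against 230 lower and 0 higher among the 236 members. The minimum is a sum over all units, so members that reached it only through the assays where they are high had to differ, and the counts and median over the 236 describe those members without supporting a direction. Of the 236, 37 had 0 AGTuC reads, and 34 held at least 50 reads in AGTuC alone. Of these 34, 33 were lower, with a median log2 fold change of -3.59. No count under that stricter minimum is given for all features, so the 33 of 34 have no like share beside them. The 230 were 117 of 120 C/D, 96 of 98 H/ACA and 17 of 18 unclassified members, and 52 of the 54 members in ribosomal protein genes. The median log2 fold change of the members was -4.59 and that of all features 0.93. With the 37 members that had 0 AGTuC reads set to their bound, the members' median was -4.32. Scaling by the median of ratios moved the median of all features to 0.05, with 4504 lower and 4509 higher, and that of the members to -5.48, with 232 lower. Both AGTuC libraries are of 1 experiment, so assay and batch cannot be told apart. Without Exp125c_c02, 171 members and 6745 features were called.

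Most tested host genes were higher in AGTuC under scaling to unit totals, where 47.3% of all features were called higher. Reads of a host were counted over its whole span, gene start included, outside all annotated small RNAs. Per the study, intact-nuclei libraries capture fewer paused polymerases near gene starts, and host reads were not split by position. Of 136 tested hosts, 88 were higher and 4 lower in AGTuC, with a median log2 fold change of 1.38 against the 0.93 of all features. Of the 208 members in these hosts 202 were lower, a count that describes them without supporting a direction. Only 34 of the 236 tested members held at least 50 reads in AGTuC alone, and these were not compared with their own hosts. 2410006H16Rik had 5.37 to 43.7 RPM in scGRO-seq and 105 and 116 in AGTuC, a log2 fold change of 2.71 (SE 0.41, adjusted p = 7.97e-06, limma). Rpl3, Hspa8 and Tpt1 rose by 2.69, 3.42 and 2.79 (SE 0.47, 0.48 and 0.43). The 4 lower hosts, named here after their values were seen, were Rian, with 0 reads in AGTuC, 1110038B12Rik, Dancr and Frmd4b. 1110038B12Rik, the host of a SNORD48 copy, had 371 to 2033 RPM in scGRO-seq and 122 and 124 in AGTuC, a log2 fold change of -2.59 (SE 0.80, adjusted p = 0.00651, limma). Dancr and Frmd4b changed by -2.23 and -1.21 (adjusted p = 0.0396 and 0.0111, limma). Neither calls nor counts of hosts were repeated under the alternatives, including the median-of-ratios scaling, which lowered the median of all features.

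**Figure D3:**
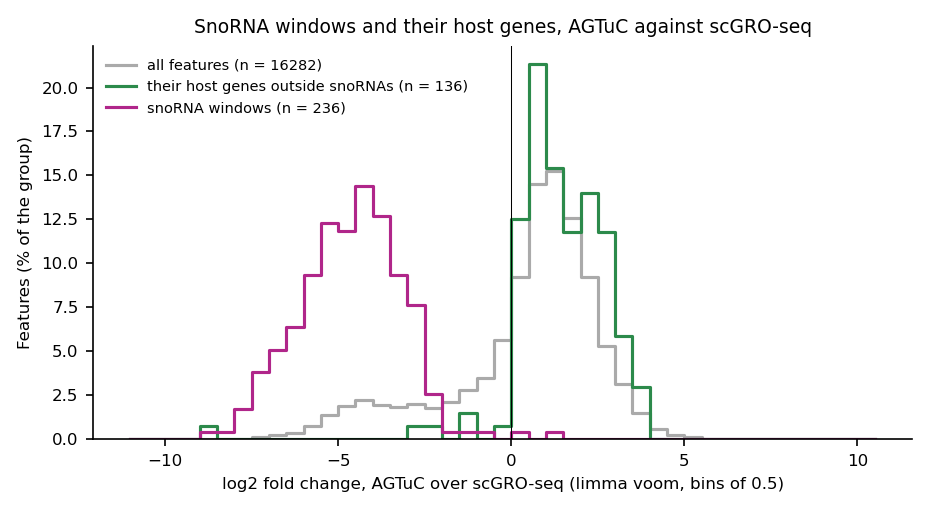
Distribution of log2 fold changes of AGTuC over scGRO-seq from limma voom, as percent of the features of a group per bin of 0.5, for 236 snoRNA windows, 136 host genes outside small RNAs and all 16282 features. The snoRNA windows centre at -4.59 and their hosts at 1.38. Only 34 of the 236 windows held at least 50 reads in AGTuC alone, with a median of -3.59. The other windows reached the minimum only with the other assays, so their place supports no direction.

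The intronic trio of 2410006H16Rik were among the C/D members with most scGRO-seq reads, a choice that favours lower values in AGTuC. Snord49b had 381 RPM in its lowest scGRO-seq batch, a median of 1189 and 3270 in its highest. In inAGTuC it had 688, 263, 19.8 and 3821, and in AGTuC 15.2 and 21.03. All batches lay above both AGTuC libraries, and Exp234_c11 fell beside them. The log2 fold change of AGTuC over scGRO-seq was -6.08 (SE 1.05, adjusted p = 3.16e-05, limma), with -5.25 for Snord49a and -6.54 for Snord65. Snord65 ran from 105 to 1603 RPM in scGRO-seq against 4.48 and 5.89 in AGTuC. With 38 AGTuC reads, it reached the minimum of 50 only with the other assays. The SNORD48 copy LOC115488834, a C/D member in an intron of 1110038B12Rik, was the most-read C/D member whose host was also called lower. It had 93.98, 403 and 1023 RPM as its lowest, median and highest scGRO-seq batch, 624, 82.8, 4.79 and 1122 in inAGTuC, and 14.8 and 17.5 in AGTuC. Its scGRO-seq values lay above both AGTuC libraries, with a log2 fold change of -4.58 (SE 1.099, adjusted p = 0.000867, limma).

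Ribosomal protein genes, which host many guides, held a large share of the reads. Their 54 snoRNAs were seen in every assay and held 32.9 to 40.5% of the window reads of a scGRO-seq batch, 24.3 to 37.5% in inAGTuC and 37.5 and 41.3% in AGTuC. Snord83b, a C/D member in an intron of Rpl3, had 242, 428 and 2675 RPM as its lowest, median and highest scGRO-seq batch. In inAGTuC it had 480, 257, 28.7 and 1007, and in AGTuC 12.5 and 10.5, a log2 fold change of -5.55 (SE 0.86, adjusted p = 9.50e-06, limma). The SNORD58 copy Gm23301 in Rpl17, Snord21 in Rpl5 and the SNORD36 copy LOC115489587 in Rpl7a changed by -6.92, -6.55 and -6.08. With 26, 25 and 30 AGTuC reads, they reached the minimum of 50 only with the other assays. LOC115489587 had 21.5 RPM in its lowest and 1432 in its highest scGRO-seq batch, and it had 3.58 and 4.63 in AGTuC.

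Snord118 (U8) and Snord13 (U13), which are transcribed on their own, had log2 fold changes of -3.35 and -2.71. The median was -3.59 for the 34 members with at least 50 AGTuC reads, to which both belong. It was -4.59 for all 236 tested members. The intronic Snord14e lay at -3.36. Medians were -4.10 for tested members without a host and -4.63 for those with a host. These differences were not tested, and most of the 236 members reached the minimum of 50 reads only with the other assays. The fold changes of a second U8 annotation and of another gene without a host lay beyond -4.59. LOC115485860, also annotated as U8 but lying in an exon of some transcripts of Gm24208, changed by -4.83 (SE 1.26, adjusted p = 0.00174, limma), and Gm22711, which has no host, by -5.76. Whether LOC115485860 held 50 reads in AGTuC alone is not given here, so its call supports no direction. Snord118, required for processing of the large subunit RNAs, had 266, 520 and 1578 RPM as its lowest, median and highest scGRO-seq batch. It had 454, 90.1, 30.8 and 1516 in inAGTuC, and 56.5 and 55.7 in AGTuC, where it was the most-read member with 6.57% of member reads. Its scGRO-seq and AGTuC values did not overlap. The log2 fold change was -3.35 (SE 0.83, adjusted p = 0.00112, limma). Its reads had a median mapping quality of 5 in scGRO-seq.

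Snord13 (U13), which takes part in small subunit maturation, had 76.2, 166 and 643 RPM in scGRO-seq by the same order. In inAGTuC it had 244, 271, 196 and 336, so that all 4 libraries lay inside the range of the batches, Exp234_c11 included. In AGTuC it had 25.1 and 28.2. Its log2 fold change was -2.71 (SE 0.52, adjusted p = 9.14e-05, limma). Among the 5 U3 copies, which guide the early cleavages of the ribosomal RNA precursor, 3 were tested and called lower. They had 41 (Gm24949), 4 (Gm25203) and 5 (Gm24826) AGTuC reads, and reached the minimum of 50 only with the other assays. Their calls therefore support no direction. Gm24949, the most read with 314 scGRO-seq reads, changed by -1.93 (SE 0.63, adjusted p = 0.00944, limma), Gm25203 by -3.98 (SE 0.82, adjusted p = 0.000198, limma) and Gm24826 by -2.81 (SE 1.15, adjusted p = 0.0346, limma). The summed U3 copies had 16.1 to 69.2 RPM in scGRO-seq and 4.93 and 8.20 in AGTuC.

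The 8 H/ACA members with most scGRO-seq reads had lower values in AGTuC, a direction that choosing them by scGRO-seq reads favours. Gm22711, the most read of them, had 121, 790 and 2749 RPM in scGRO-seq, 769, 91.3, 34.9 and 1158 in inAGTuC, and 7.62 and 16.6 in AGTuC. Its fold change was -5.76 (SE 1.023, adjusted p = 4.29e-05, limma). Snora57, which lies in an exon and not an intron, had 167, 422 and 1084 in scGRO-seq, and 17.9 and 12.6 in AGTuC (-4.87, SE 0.94, adjusted p = 0.0001, limma). Of the other 6 most-read H/ACA members, the log2 fold changes of Snora74a, Snora65 and Gm23639 were -4.60, -5.11 and -5.19, and those of Snora64, Snora31 and Snora52 were -5.39, -5.84 and -6.46, all of them called. Snora31 and Snora52 had 47 and 34 AGTuC reads and reached the minimum of 50 only with the other assays. U14 copies, which act in small subunit processing as C/D guides, ran from -3.36 (Snord14e, SE 0.60) to -4.87 (Snord14a) across 4 genes. Snord14a, Snord14c and Snord14d had 23, 24 and 29 AGTuC reads and reached the minimum of 50 only with the other assays. Snord14e had 118.

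**Figure D4:**
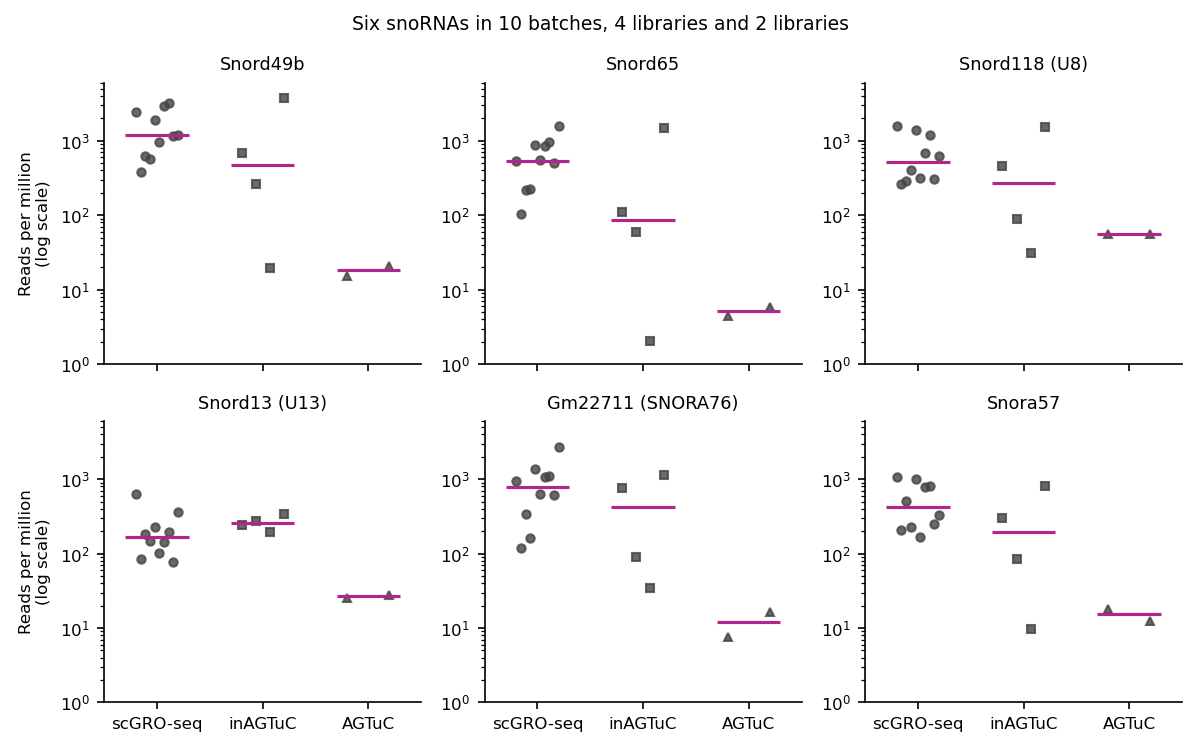
RPM on a log scale of 6 members in the 10 scGRO-seq batches (circles), 4 inAGTuC libraries (squares) and 2 AGTuC libraries (triangles), with group medians as lines. In the plots of Snord49b, Snord65, Snord118, Snord13, Gm22711 and Snora57 every scGRO-seq batch lies above both AGTuC libraries, and U13 is the member whose inAGTuC values spread least. All but Snord13 are among the members with most scGRO-seq reads, a choice that favours lower AGTuC values. Features without overlap were not counted over all features, of which 64.7% were called between these assays.

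In 1 imprinted cluster the scGRO-seq batches split among themselves. The Dlk1-Dio3 cluster on chromosome 12 holds C/D snoRNAs inside and near the maternally expressed noncoding genes Meg3, Rian and Mirg. The 19 members there had no read in either AGTuC library, where 0 of 6987577 reads allows up to 0.429 RPM. They had 1 read in Exp156 and 0 in Exp160, both scGRO-seq. The other 8 batches had 213 to 1454 RPM (108 to 2953 reads), and inAGTuC had 716, 173, 14.4 and 1477. In the small batches Exp156 and Exp160, 3 counts correspond to 13.1 and 8.06 RPM, so at this depth they cannot be ranked against AGTuC. The other 8 batches lay above both of them, both AGTuC libraries and Exp234_c11.

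The host RNAs followed the same split. Meg3, Rian and Mirg outside small RNAs had 0 reads in both AGTuC libraries, 2 in Exp156 and 4 in Exp160, and 91 to 1859 in the other 8 batches (139 to 418 RPM). U13 had 643 RPM in Exp156, its highest batch, 85.9 in Exp160, near its lowest of 76.2, and 25.1 and 28.2 in the AGTuC libraries. Exp156 and Exp160 were the only batches with the 12-nt barcode set alone, and the AGTuC libraries each had a single barcode of 12 nt. Exp208 and Exp211, which used the 12-nt set in part, held 108 and 152 cluster reads. What set Exp125c, Exp156 and Exp160 apart was not tested. Of the cluster, 12 members reached the minimum of 50 reads, which they could do only through scGRO-seq and inAGTuC, so that their calls as lower in AGTuC add nothing to the 0 reads there. DQ267100 averaged 115 RPM in scGRO-seq, with 0 in its lowest batch, and 0 in AGTuC. Its scGRO-seq mean was 116 times a floor of 3 counts per AGTuC library (log2 fold change SE 2.89, adjusted p = 0.0111, limma). The means of Gm23787 and AF357425 were 70.8 and 46.2 times the same floor (adjusted p = 0.00924 and 0.000758, limma). These ratios are of means and set no bound for single batches. The calls of DQ267100 and Gm23787 were lost without either AGTuC library (adjusted p of 0.0506 to 0.0984, limma) and with experiment as a block (0.0665 and 0.0636, limma), and that of DQ267100 also with the median-of-ratios scaling (0.0511, limma).

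**Figure D5:**
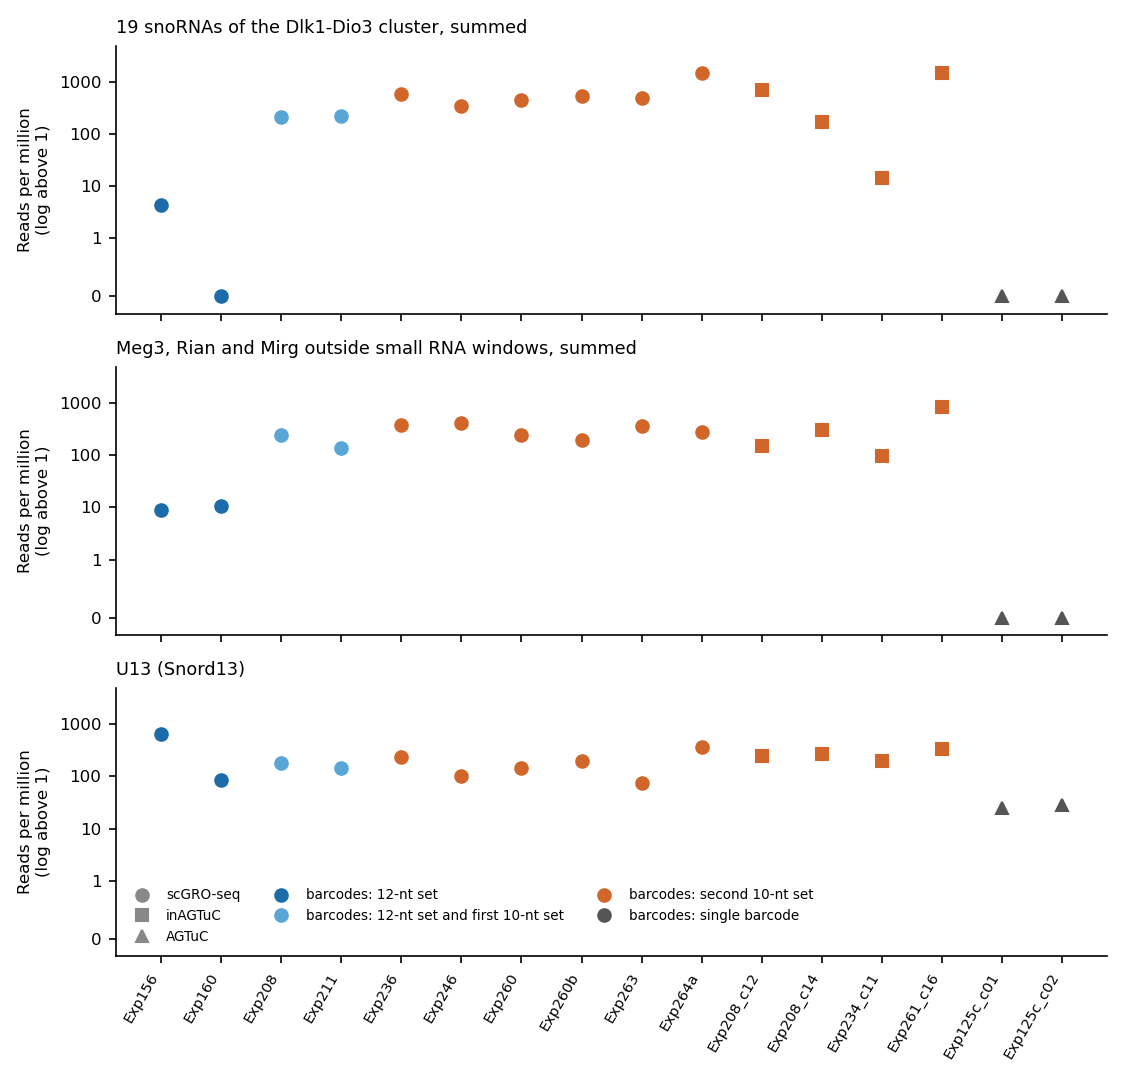
RPM, on a log axis above 1 and linear from 0 to 1, of the 19 Dlk1-Dio3 snoRNAs summed (top), their host RNAs outside small RNA windows summed (middle) and U13 (bottom), in 10 scGRO-seq batches, 4 inAGTuC libraries and 2 AGTuC libraries. Exp156, Exp160 and both AGTuC libraries hold 0 or 1 snoRNA read and 0 to 4 host reads, whereas U13 is present in all.

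The Prader-Willi locus, imprinted the other way, gave few reads from its repeated copies. Its 132 SNORD115 copies had 56 scGRO-seq reads and its 69 SNORD116 copies 132, with 0 of both in AGTuC, but 113 and 55 of these genes share their last 40 nt with another, which limits placement. Snord64, a single copy there, had 5.37, 122 and 377 RPM in scGRO-seq, with 0 and 4 reads in AGTuC. In inAGTuC it had 290, 17.04, 0 and 787 RPM. Its host Snhg14 had 136 and 314 reads in AGTuC, and its log2 fold change of -1.20 (SE 0.61, adjusted p = 0.0847, limma) did not pass. Snord64 reached the minimum of 50 reads only through scGRO-seq and inAGTuC, so its fold adds nothing to the 0 and 4 reads. The fitted value was -7.49 (SE 2.83, adjusted p = 0.0229, limma), and the call was lost without either AGTuC library (0.0981 and 0.0989), with the median-of-ratios scaling (0.0917) and with experiment as a block (0.156).

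The 6 tested members that were not called, named here after their values were seen, averaged 1.54 to 17.6 RPM in scGRO-seq. LOC115488570, a U82P copy in Rpl3, had a log2 fold change of 1.01 (SE 0.67, adjusted p = 0.183, limma) and LOC115487276, a SNORA25 copy in Taf1d, 0.23 (SE 0.63, adjusted p = 0.755, limma). LOC115487513 (SNORD101), Snord1c, Snora20 and LOC115490494 (U13 copy) had -0.93, -1.28, -2.24 and -2.61.

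Between inAGTuC and scGRO-seq no feature was called. The limma voom fit called 0 of 16282 features (percent called 0), with 949 (5.83%) at an unadjusted p under 0.05, and of all features 1.25% were lower in inAGTuC at that p. Of the 236 members, 52 had an unadjusted p under 0.05, and 51 of these were lower. The members' median was -0.88 and that of all features 0.18. The result depended on the libraries. Without Exp261_c16, 68 features were called and 25 of them were members, all lower in inAGTuC, with a members' median of -1.69. Without Exp234_c11 the median was 0.17 and none was called. In data simulated for this comparison, 31.8% of features lowered by a log2 of 2 were called (14 of 44), so falls of this size would often be missed.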

How the data were processed

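The deposited lists hold 1 row per deduplicated read from 82 libraries. Per the labels, the authors used cutadapt, Bowtie2 and UMI-tools on build mm10, and versions are not given in the sources used here. The deposited score column is the aligner's mapping quality, and the deposited coordinates are another unit, positions in bp.

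The RNA strand was taken as opposite to that of the row and the RNA 3′ end as its 3′-most aligned base. scGRO-seq was restricted to 10 batches, which hold 53 of the 76 libraries. Within them, only cells of at least 1000 reads and 750 features in libraries with at least 24 such cells were kept. A molecule (position, strand, barcode and 5-nt UMI) found in linked libraries, which share over 0.1% of molecules, was left out. PCR duplicates were already removed, and floors of 3 counts cover counting error only.

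Windows reached 20 bp past each snoRNA. Groups were compared by two-sided exact permutation tests with Benjamini-Hochberg adjustment over 6, and within scGRO-seq by exact sign flips over batches. Features of at least 50 reads were fitted over all 16 units with limma voom 3.58.1 (R 4.3.3), which was tested on simulated data. Alternatives are listed in the closing section.

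The members, gene lists and D and ACA box searches were chosen with earlier results of these data known. Genes named are the 8 of each family with most pooled scGRO-seq reads and the 3 called members with the largest fold. Members are also named by role (U3, U8, U13, U14, imprinted clusters, the 4 most-read in ribosomal protein genes). Choosing by scGRO-seq reads favours lower values in AGTuC. Role groups of several copies are given by their sum or count and by single members. One sequence is not reported here.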

Additional observations from a re-analysis of the deposited data

Results flagged for a closer look

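Values were tested by assay in 50 groups, of measures over the members and of RPM of named members. For normal values in independent groups, about 1 in 20 groups would hold a sample whose gap to its nearest neighbour exceeds Dixon's 95% limit. RPM values are skewed and the groups share units, so the count found cannot be set against that rate. In 12 groups, all of RPM of named members, 1 sample exceeded the limit. Within inAGTuC, 6 of these were Exp261_c16, the library listed under both assays. It had 1363 RPM for Snord49a against a median of 151, 1470 for Snord65 against 85.2, 1770 for Gm23301 against 146 and 1870 for LOC115489587 against 144. It also had 802 for Snora31 against 71.3 and 874 for Snora64 against 44.3.

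Within scGRO-seq, Exp156, the batch with the largest share of snoRNA reads, had 2675 RPM for Snord83b against a median of 428 and 643 for Snord13 (U13) against 166. It also had 1381 for Snora52 against 363 and 988 for Snora74a against 334. Exp264a, the batch with the next largest share, had 2749 for Gm22711 against 790 and 1708 for Snora64 against 373. What raised these values was not tested.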

How the results depend on the processing

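Of 378 alternatives of the compared values and counts, 331 kept their direction and side of the threshold (counts: within 1.5 times) and 6 reversed. With named Snord and Snora members only, the end share differed by -20.4 (inAGTuC) and -32.7 (AGTuC minus scGRO-seq), both at an adjusted p of 0.0599 (exact permutation test), and C/D over H/ACA reads per gene was -0.10. With an end zone of 1 nt the differences were -12.9 and -18.9 (both 0.0909, exact permutation test), C/D minus H/ACA was -1.12, and members minus the other snoRNAs 1.36. C/D minus H/ACA passed the threshold with a zone of 5 nt (5.02) and with all batches labelled scGRO-seq (5.30). Alternatives added after seeing the data gave, for C/D minus H/ACA, -0.78 at mapping quality 30 or more and 5.78, past the threshold, in the zone after the box, where members minus other snoRNAs was -2.16. With batches of the second 10-nt set alone, the end share differed by -18.0 and -30.1. Without Exp261_c16 as well, inAGTuC differed by -22.2 with that set, -23.2 with named members and -14.0 with the zone of 1 nt, none past the threshold. With those of the other sets it differed by -29.2 and -41.3, C/D minus H/ACA was -0.39, reads per gene 1.72, sense over antisense 3.23, window over flank 5.51 and members minus others -4.97. These 4 batches cannot reach a p below 0.125 by exact sign flips. The causes of the changes were not tested.

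Leaving out 1 unit at a time, the share of reads in inAGTuC minus scGRO-seq ran from -1.79 to 0.15 (above 0 without Exp234_c11), the end share from -26.7 to -16.4, and that of AGTuC from -35.9 to -32.5. Features called ran from 0 to 68 and members from 0 to 25 in inAGTuC (68 and 25 without Exp261_c16), and from 6745 to 11083 features and 171 to 232 members in AGTuC. With a minimum of 1 read, 16275 features and 641 members were called in AGTuC, where more were tested. The trend fit called 6893 features and 195 members. The replicate block, experiment as a random block with a correlation of 0.626, called 8273 features and 189 members in AGTuC and 0 in inAGTuC. Single fold changes were repeated under the alternatives only for DQ267100, Gm23787, AF357425, Snord49b, Gm22711, Snord118, Snora57, Snord13, Snord14e and Snord64. Of these, DQ267100, Gm23787 and Snord64 lost their call under some alternatives, and the rest kept it. Folds of the other named members were not repeated. Depth limited the AGTuC folds of members with few reads there, of which 37 had 0.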

Other observations

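In Exp234_c11, the inAGTuC library with the smallest share of snoRNA reads, the U14 copies held 12.98% of the window reads, against 0.738 to 3.46% in the scGRO-seq batches, and 0.262% of their reads lay within 3 nt of the annotated end.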
